A study of Mus musculus with 4 samples.

Results

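The genes described here are 10 neuropeptide precursors, Pdyn, Penk, Pnoc, Npy, Gal, Tac1, Cck, Sst, Vip and Nts, in sorted cells of the embryonic mouse kidney. They were found by gene name among the 39395 non-control probes of the array, of which 11 carried one of these names: 2 for Pdyn and 1 for each other gene. Of the 11 probes, 9 stood well above the local background, as the scanner software marks it, on the 2 arrays of a group, which put 8 of the 10 genes among the 24150 genes that could be tested. The Pnoc and Vip probes did not reach that level. The set was chosen by the measured difference between positive and negative cells that is described below, with Pdyn in the lead, so the precursors' own differences are given as descriptions with no test.

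Kidneys of mouse embryos at E15.5, on a mixed 129 and C57BL/6 background, were dissected and sorted by GFP, which in Six2GFP embryos is driven by Six2, the transcription factor that keeps nephron progenitors in renewal. Sorting gave GFP-positive and GFP-negative cells, and 2 samples of each were hybridised, 1 array per sample, for 4 arrays in all. The genotype field reads Six2GFP(+) for the positive group and Six2GFP(-) for the negative group, and the cell type field names nephron progenitors for both. A description shared by all samples mentions tamoxifen, which no protocol lists, and no tamoxifen comparison was made. The negative group holds every kidney cell that lacked GFP, so it is a mixture. Whether the 2 samples of a group came from separate litters or sorts is not given, and the spread between them may be technical.

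Six2 itself followed the sort. Its log2 signal relative to the 75th percentile of each array was 5.58 and 5.74 in the positive cells and -0.17 and -0.15 in the negative cells. Of 10 nephron progenitor markers 9 were higher in the positive cells, 7 of 8 stromal, 6 of 7 endothelial and 4 of 6 leukocyte markers were lower there. Between 72.5% and 79.1% of spots were well above background, none was saturated, and arrays of a group correlated at 0.994 or more across genes. Of all genes tested 38.9% passed the threshold of 0.05 on the Benjamini-Hochberg adjusted p of limma, and with 2 arrays a group the number of arrays limits the precision of every value.

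Neuropeptides are made as long precursors that enter the secretory pathway, where prohormone convertases cut them beside pairs of basic residues, carboxypeptidases trim the ends and an amidating enzyme finishes many of the peptides. The products are stored in dense-core granules, released, sensed by G protein-coupled receptors and cleared by cell-surface peptidases. The genes are best known from neurons and endocrine cells, and peptidases that clear peptides are also brush border proteins of kidney tubules.

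Some of the array's 60-base probes lie in the part of a transcript that is cut into peptides, and 3 of them are printed to show what was hybridised. Capitals mark paired codons for basic residues in a reading frame without a stop codon, the signal that convertases read, although not every such pair is cut.
Pdyn, mm9 chr2:129513968-129514027, minus strand: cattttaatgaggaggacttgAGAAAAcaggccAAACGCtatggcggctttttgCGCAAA
Npy, mm9 chr6:49773743-49777505, plus strand: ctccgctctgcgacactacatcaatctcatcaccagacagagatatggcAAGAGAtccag
Nts, mm9 chr10:101944967-101945026, minus strand: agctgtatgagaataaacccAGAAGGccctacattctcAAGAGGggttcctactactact
The Pdyn stretch holds 3 such pairs, and the codons between the last pair and the one before it are those of leucine-enkephalin, the core that dynorphin peptides share. The Nts stretch holds 2 pairs and the Npy stretch 1. The Npy probe's 60 bases span 3763 bases of the genome, so it crosses a splice junction and matches the spliced transcript. Exon and UTR annotation on mm9 was not used here, and the other probes are described by position alone.

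The start regions of the most changed precursors of each direction, Pdyn and Nts, are shown as they stand in RefSeq on GRCm38.p6, 250 bases before each gene's start, because these are the windows that were searched for short motifs.
Pdyn, chr2:129699939-129700188, minus strand: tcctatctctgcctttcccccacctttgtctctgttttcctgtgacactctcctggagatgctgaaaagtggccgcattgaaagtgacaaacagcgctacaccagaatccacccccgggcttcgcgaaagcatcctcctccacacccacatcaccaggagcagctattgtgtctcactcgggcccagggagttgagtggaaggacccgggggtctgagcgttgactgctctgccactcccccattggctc
Nts, chr10:102490419-102490668, minus strand: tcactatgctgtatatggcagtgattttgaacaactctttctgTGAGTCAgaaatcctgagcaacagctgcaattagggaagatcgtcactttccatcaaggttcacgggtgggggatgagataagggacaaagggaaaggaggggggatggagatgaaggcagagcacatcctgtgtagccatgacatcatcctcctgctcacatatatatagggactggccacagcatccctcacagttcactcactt
The capitals in the Nts window mark a match to the AP-1 element TGACTCA, read on the other strand. On either strand this element lies in 4.46% of 32851 RefSeq windows of the same length, the cAMP response element TGACGTCA in 1.55% and the TATA motif TATAAA in 12.4%. Among the 9 windows of 8 precursors, Nts alone held the AP-1 element, Sst alone the cAMP response element and Vip alone the TATA motif. The Pdyn window held none of these letters. Penk and Pnoc had no window.

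Pdyn, the precursor of the dynorphins, which act mainly on the kappa opioid receptor, was the one member that was higher in the nephron progenitors. On its brighter probe (mm9 chr2:129512323-129512382, minus strand) the log2 level relative to the 75th percentile was 0.66 and 0.47 in the positive cells and -4.19 and -4.66 in the negative cells. Both positive arrays lay above the percentile and both negative arrays far below it, with no overlap and a gap of 4.66 between the groups. The difference was 4.99 ± 0.25 (SE, 2 arrays a group), or 31.8-fold. It ranked 19 from the top of the 24150 genes. The processed signal itself was 2256 and 1957 in the positive cells against 87.9 and 62.9 in the negative cells, and the probe was well above background on all 4 arrays.

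The Pdyn probe printed above, 1645 bases away and nearer the start of the gene, was much dimmer. Its log2 level was -6.31 and -5.91 in the positive cells and -9.44 and -9.26 in the negative cells, where it was not well above background on either array. Here too the groups did not overlap, and both positive arrays were the high ones. The measured difference was 3.24, and since the negative cells give only a limit, Pdyn was at least 2.23-fold higher in positive cells on this probe. Such limits set the bright group's mean against the lowest signal that was well above background on the dim arrays. Where the dim probe's own signal was higher, that signal was used. They hold for the processing used here, and alternative processing gave smaller differences for some genes.

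The 5 genes whose level over the 4 arrays, centred on each gene's own mean, lay closest to that of Pdyn were Asic4, Chrnd, Osr1, B130016D09Rik and Traf1. Asic4 codes for a member of the acid-sensing ion channel family, Chrnd for the delta subunit of the muscle acetylcholine receptor, Osr1 for a transcription factor of early kidney mesoderm and Traf1 for an adaptor of tumour necrosis factor receptors. Their root mean square distance from Pdyn was 0.155 for Asic4, 0.195 for Chrnd, 0.214 for Osr1, 0.242 for B130016D09Rik and 0.243 for Traf1, on the log2 scale over 4 arrays. The likeness is largely that of 2 groups with a similar gap, since the difference was 4.74 for Asic4, 5.12 for Chrnd, 5.12 for Osr1 and 5.40 for Traf1. B130016D09Rik was not well above background in the negative cells.

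Penk, the precursor of the enkephalins, which act mainly on delta and mu opioid receptors, went the other way from Pdyn. Its log2 level (mm9 chr4:4060724-4060783, minus strand) was -0.01 and -0.53 in the positive cells and 4.86 and 4.75 in the negative cells. Both negative arrays were high and the groups were 4.76 apart. The difference was -5.07 ± 0.26 (SE), 33.6-fold lower in the positive cells, and the 102nd lowest of all genes tested. The processed signal was 1418 and 979 in the positive cells and 46440 and 42665 in the negative cells. Penk was therefore well above background in both populations. In bulk samples such as these, fewer cells that express a gene and less RNA per cell cannot be told apart.

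Pnoc, the precursor of nociceptin, could not be placed. Its probe (mm9 chr14:66020505-66020564) read -6.85 and -8.64 in the positive cells and -6.56 and -7.78 in the negative cells, well above background on 1 of the 2 arrays in each group. The groups overlapped, the high array of each group being the first, and the difference of -0.57 ± 1.09 (SE) was smaller than the spread between arrays.

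Nts, the precursor of neurotensin, had the lowest difference of the set. Its log2 level on the probe printed above was -5.19 and -5.38 in the positive cells and -0.08 and -0.22 in the negative cells. The groups lay 4.97 apart, with both negative arrays near the 75th percentile. The difference was -5.13 ± 0.12 (SE), 35.1-fold lower in the positive cells and 93rd lowest of all genes.

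Cck, the precursor of cholecystokinin, and Npy, the precursor of neuropeptide Y, were also low in the nephron progenitors. Cck (mm9 chr9:121398943-121399002, minus strand) read -4.39 and -4.42 in the positive cells and -1.01 and -0.57 in the negative cells. Npy read -4.52 and -5.14 in the positive cells and -1.39 and -1.35 in the negative cells. Neither gene overlapped between the groups, and both were well above background on all 4 arrays. Cck was lower by 12.2-fold (-3.61 ± 0.22, SE) and Npy by 11.0-fold (-3.46 ± 0.31, SE).

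Tac1, from which substance P and neurokinin A are cut, was measured in the negative cells alone. Its probe (mm9 chr6:7512893-7512952, plus strand) read -9.02 and -7.71 in the positive cells, not well above background on either array, and -5.12 and -5.27 in the negative cells, well above it on both. Both negative arrays were above both positive arrays. Tac1 was at least 3.37-fold lower in the positive cells, with a measured difference of -3.17. Another background correction (normexp, before the 75th percentile) reduced the difference to -0.45.

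Gal, the precursor of galanin, and Sst, the precursor of somatostatin, were nearly level between the populations. Gal (mm9 chr19:3411143-3411202, minus strand) read -0.04 and 0.01 in the positive cells and 0.17 and 0.21 in the negative cells, a difference of -0.20 ± 0.03 (SE). Sst (mm9 chr16:23889776-23889835, minus strand), spotted 10 times on each array, read -6.48 and -6.45 in the positive cells and -6.27 and -6.01 in the negative cells, a difference of -0.33 ± 0.13 (SE). Neither pair of groups overlapped, but the gap was 0.16 for Gal and 0.18 for Sst, and the SD over the spots of Sst on 1 array ran from 0.15 to 0.41. The sign of the Gal difference turned to 0.05 when arrays were scaled to their median, and that of Sst to 0.06 with another background correction (normexp).

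Vip, the precursor of vasoactive intestinal peptide, was not well above background on any array (mm9 chr10:4699238-4699297, minus strand). It read -9.37 and -9.07 in the positive cells and -8.01 and -8.03 in the negative cells. These values do not order the groups, since all of them lay in the background range.

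Of the 8 precursor genes in the fit, 1 (Pdyn) was at least 2-fold higher in the positive cells, where 4.14% of all genes were, and 5 (Penk, Nts, Cck, Npy and Tac1) were at least 2-fold lower, where 13.6% of all genes were. By the adjusted p, 20.7% of all genes were called higher and 18.3% lower. Their groups did not overlap on any of the 9 probes, as was so for 74.9% of all genes. Since this contrast chose the genes, nothing is read from these shares. The median difference of the 8 genes was -3.31, against 0.15 for all genes tested.

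**Figure D1:**
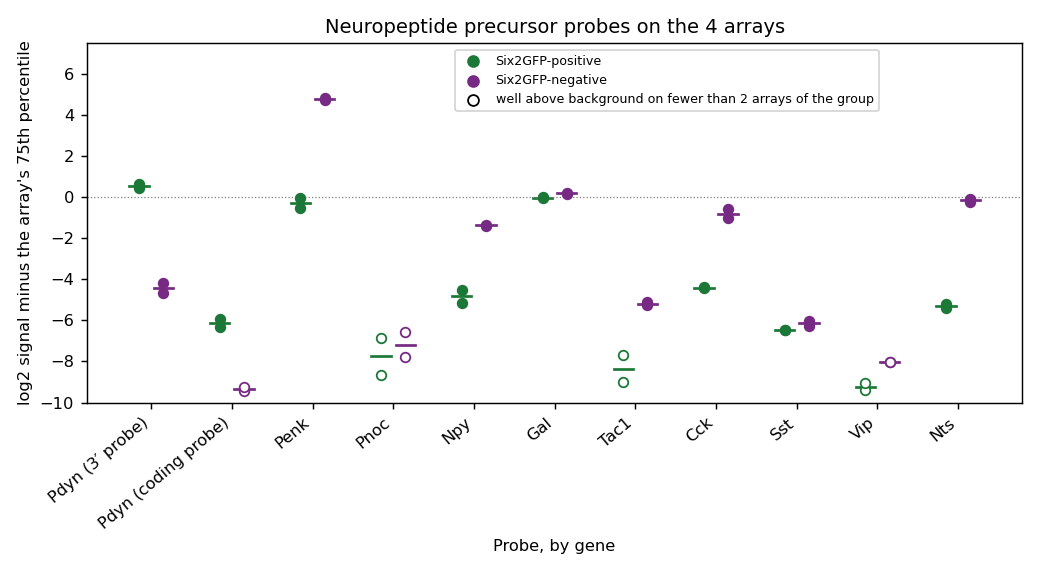
The log2 signal of each precursor probe relative to the 75th percentile of its array (vertical axis), by probe, with 1 point per array, a bar at the group mean, green for Six2GFP-positive and purple for Six2GFP-negative cells, and open points where a probe was well above background on fewer than 2 arrays of the group. Pdyn is the gene whose green points lie high above its purple ones, 0.66 and 0.47 against -4.19 and -4.66 on the brighter probe, while Penk, Npy, Tac1, Cck and Nts lie the other way and Gal and Sst are nearly level.

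The low precursors moved with markers of several other cell types, whose part in these values was not tested. The 8 stromal markers summed, on the linear scale of multiples of the 75th percentile, to 10.8 and 10.0 in the positive cells and 67.1 and 64.3 in the negative cells. A single bright probe weighs on such sums, so lists were also summed without their brightest one, a choice made after seeing the data; for stroma this left 10.1 and 9.40 against 42.5 and 39.4. The 7 endothelial markers summed to 6.35 and 6.00 against 14.6 and 13.7. In the positive cells that sum came mostly from the brighter Kdr probe, which differed by 0.07, while the other Kdr probe differed by -5.29. Without Kdr the other 6 markers summed to 0.257 and 0.277 against 8.58 and 8.37. For comparison, 38.9% of all genes tested were called, 20.7% higher and 18.3% lower. Neuronal markers were mixed: of 16 tested, 5 were higher and 5 lower in the positive cells (62.5% called). Their sums were 12.9 and 12.2 against 9.26 and 7.41. Stmn2, a neuronal tubulin regulator, was at least 12.3-fold lower in the positive cells, while the neurofilament gene Nefl was higher by 4.15 on the log2 scale. Of 13 sympathetic and chromaffin markers 11 were tested (36.4% called). They summed to 2.55 and 2.52 in the positive cells against 7.57 and 8.32 in the negative cells. Gata3 alone set that direction: without it the sums were 2.29 and 2.39 against 1.37 and 1.54, and the median difference of the 11 was 0.14. Of the 13, Pnmt, the enzyme that makes adrenaline, was higher by 4.34, Gata3, Chga and Slc18a1 were lower, and Isl1, a transcription factor of sympathetic neurons, did not stand well above background in either group. Schwann and neural crest markers summed to 3.49 and 3.69 against 2.78 and 3.05, or without Ngfr to 0.793 and 0.754 against 0.751 and 0.765. Among these markers 2 of 8 tested were higher and 3 lower (62.5% called), and Foxd3 and Cdh19 were not well above background. Of 7 adrenal cortex markers tested 1 was lower and none higher by limma (14.3% called). The neuron, sympathetic and Schwann labels describe the lists only, since kidney cells of other types also express several of their genes.

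The receptors of these peptides were tested in the same fit, since they did not enter the choice of the precursors. All 28 receptors on the list had a probe, and 23 were well above background on both arrays of a group. Of these 5 were higher and 8 lower in the positive cells (56.5% called, against 38.9% of all genes, 20.7% higher and 18.3% lower), with a median difference of 0.18. With each of the 4 arrays left out in turn, 2 of the higher and 6 of the lower calls held every time. Scaled to the array median the split was 11 higher and 8 lower, and after quantile normalization 8 and 8. The families are taken in turn below.

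For the opioid peptides the receptor list ended where the precursors differed most. Oprk1, the kappa receptor for dynorphins, and Oprd1, the delta receptor for enkephalins, were not well above background on both arrays of either group and were not tested. Oprm1, the mu receptor, read 2.72 and 2.66 in the positive cells and 2.56 and 1.91 in the negative cells, and Oprl1, the nociceptin receptor, read -2.85 and -2.76 against -2.76 and -2.88. The Oprm1 groups did not overlap and the Oprl1 groups did. Neither passed the threshold: the Oprm1 difference was 0.46 ± 0.25 (SE, adjusted p = 0.212 by limma) and that of Oprl1 0.02 ± 0.10 (SE, adjusted p = 0.907). Without the first negative array Oprm1 passed, at a difference of 0.78 and an adjusted p of 0.036.

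The neuropeptide Y receptors that passed the test were lower in the nephron progenitors, as Npy was. Npy1r read -5.63 and -6.22 in the positive cells and -3.93 and -3.85 in the negative cells, and both negative arrays were higher. The difference was -2.03 ± 0.23 (SE, adjusted p = 0.00667). Npy2r gave only a background reading in the positive cells, which puts it at least 1.54-fold lower there (adjusted p = 0.0233), a call that was lost without negative array 1 (0.0748) or 2 (0.0985) and with normexp (-0.23, adjusted p = 0.0731). Npy4r differed by 0.18 (adjusted p = 0.205). Npy5r, which also gave only a background reading in the positive cells, did not pass either (adjusted p = 0.118). Its limit was at least 1.16-fold lower there, but under alternative processing the sign of its difference turned, to 0.08. Npy6r was not tested.

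Cckar, the receptor of cholecystokinin in the gut and pancreas, was among the lowest receptors. It read -7.40 and -7.69 in the positive cells, not well above background on either array, and -3.87 and -3.73 in the negative cells. Cckar was at least 8.86-fold lower in the positive cells (adjusted p = 0.00061). Its smallest measured difference under alternative processing was -1.05. Cckbr, the brain-type receptor, could not be placed, since its 2 probes differed by 0.43 and -1.93. The brighter probe gave an adjusted p of 0.328, and the mean of both gave -0.75 (adjusted p = 0.0307).

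For the tachykinins, Tacr1, the substance P receptor, was low where Tac1 was low. It read -8.11 and -9.00 in the positive cells, not well above background, and -5.52 and -5.74 in the negative cells. Tacr1 was thus at least 2.49-fold lower in the positive cells (adjusted p = 0.00719). Its smallest measured difference under alternative processing was -0.36. Tacr3, which prefers neurokinin B, went the other way, at -2.89 and -3.35 against -3.96 and -4.20, with a difference of 0.96 ± 0.20 (SE, adjusted p = 0.0303). The Tacr3 groups did not overlap. The call of Tacr3 was lost when either negative array or positive array 1 was left out, at an adjusted p of up to 0.113. Tacr2 differed by 0.44 (adjusted p = 0.237).

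The neurotensin receptors split. Ntsr1, the high-affinity receptor, rose in the positive cells while its ligand's precursor was low there: it read 2.05 and 2.18 in the positive cells and 0.14 and 0.02 in the negative cells. Both positive arrays were above both negative arrays, and the difference was 2.04 ± 0.10 (SE, adjusted p = 0.00101), with 1.56 on a second probe. Ntsr2 gave only a background reading in the positive cells, which puts it at least 1.66-fold lower there (adjusted p = 0.0072), which with normexp became -0.13 (adjusted p = 0.218). Sort1 and Sorl1 code for sorting receptors that also bind neurotensin. Sort1 was higher by 0.59 ± 0.09 (SE, adjusted p = 0.0165) on its brighter probe and 0.02 on the other, and kept its call only without negative array 2, the adjusted p otherwise reaching 0.0856. Sorl1 was lower at -0.87 ± 0.12 (SE, adjusted p = 0.0116), a call that was lost without positive array 1 (0.0529) or negative array 1 (0.054).

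Among somatostatin receptors Sstr3, which is found on primary cilia, rose most. It read -1.78 and -1.31 in the positive cells and -4.21 and -4.30 in the negative cells. Both positive arrays were well above both negative ones, and the difference was 2.71 ± 0.19 (SE, adjusted p = 0.00205). Sstr1 fell, at -3.42 and -3.46 against -2.62 and -2.64, with a difference of -0.81 ± 0.08 (SE, adjusted p = 0.00518) on its brighter probe and -0.08 on the other. Sstr4 differed by 0.35 (adjusted p = 0.0512) and Sstr5 by 0.38 (adjusted p = 0.065), and neither passed. Sstr2 was not tested.

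The galanin receptors differed little. Galr3 read -5.31 and -5.45 in the positive cells and -5.83 and -6.08 in the negative cells, without overlap. It was higher by 0.57 ± 0.13 (SE, adjusted p = 0.036), a call that was lost whichever array was left out, at an adjusted p of up to 0.143. Galr2 differed by 0.35 (adjusted p = 0.083), and Galr1 was not tested. Of the receptors for vasoactive intestinal peptide, whose precursor was in the background, Vipr2 fell, at -1.11 ± 0.12 (SE, adjusted p = 0.00622), and Vipr1 differed by 0.11 (adjusted p = 0.469).

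**Figure D2:**
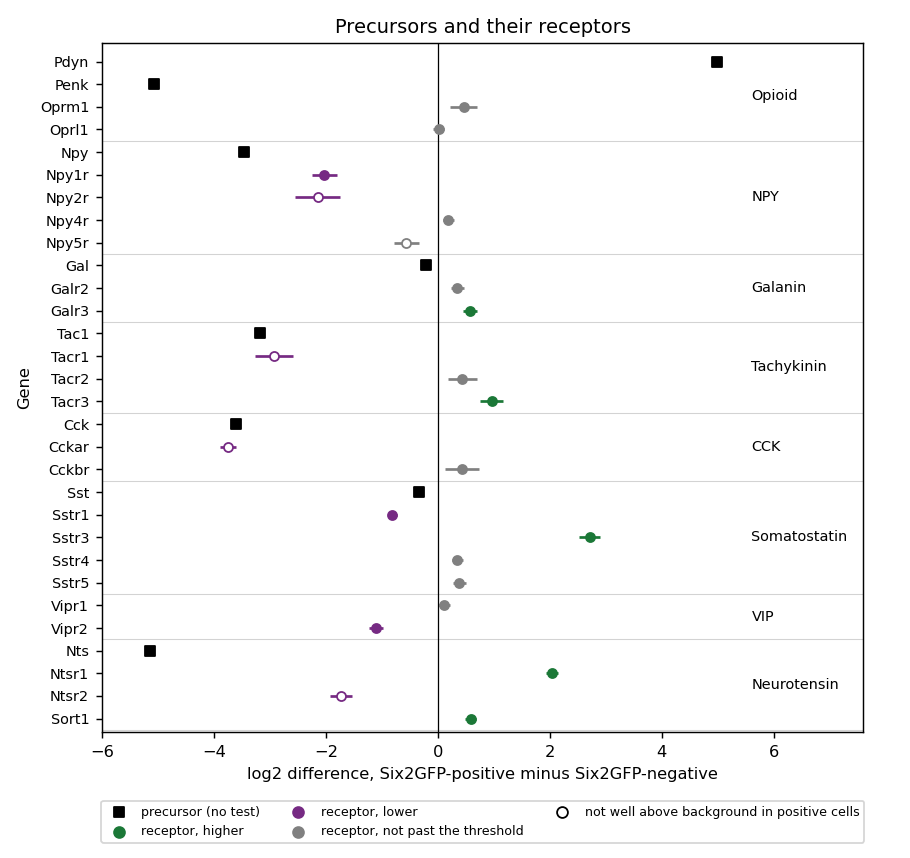
The log2 difference of positive minus negative cells (horizontal axis) of the precursors in the fit (black squares, no test) and of their tested receptors (circles with the SE of the fit, 2 arrays a group), by peptide family, green for receptors that rose, purple for those that fell, grey for those not past the threshold, and open where the positive cells gave only a background reading. Sorl1, though tested, is not drawn. Cckar, Tacr1, Npy1r, Npy2r and Ntsr2 lie on the left with their precursors, while Ntsr1 at 2.04 lies opposite Nts at -5.13.

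In the same contrast 38.9% of all genes were called, 20.7% higher and 18.3% lower. The genes that cut, trim, amidate and pack precursors were on balance uneven in it. Of 22 tested, 5 were higher and 9 lower in the positive cells (63.6% called), with a median of -0.25, and 2 higher and 6 lower calls held with each array left out. Pcsk2, a convertase that makes mature dynorphins and enkephalins, was among the lower ones, although outside the 3 lowest and named after its value was seen: it differed by -1.60 ± 0.12 (SE, adjusted p = 0.0026). Its partner convertase Pcsk1 was not well above background and was not tested, nor were the granule genes Scg2 and Ptprn.

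The 3 lowest of this list were Vgf, a granule protein cut into peptides of its own, Pcsk5, a convertase of the constitutive pathway, and Chga, the granule protein chromogranin A. Vgf differed by -1.98 ± 0.18 (SE, adjusted p = 0.004), with 1 of 2 positive arrays well above background. Pcsk5 differed by -1.85 ± 0.09 (SE, adjusted p = 0.000962) and Chga by -1.69 ± 0.11 (SE, adjusted p = 0.00166). Under alternative processing the smallest measured differences were -0.51 for Vgf, -1.58 for Pcsk5 and -0.67 for Chga. The 3 highest were Cadps2, which primes granules for release, at 1.90 ± 0.10 (SE, adjusted p = 0.00116), Pcsk4, a convertase known from germ cells, at 1.16 ± 0.11 (SE, adjusted p = 0.00394), and Cpe, the carboxypeptidase that trims most neuropeptides, at 0.72 ± 0.08 (SE, adjusted p = 0.00728). Cpe read 3.37 and 3.41 in the positive cells and 2.66 and 2.68 in the negative cells, and its call was lost without positive array 2 (adjusted p = 0.0523).

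Other peptide precursors offered a comparison that the choice of the 10 genes did not use. Of all genes 38.9% were called, 20.7% higher and 18.3% lower. Of 56 on the list 39 were tested, and 4 were higher and 12 lower in the positive cells (41% called), with a median of 0.05. Scaled to the array median the split was 11 higher and 10 lower, and after quantile normalization 10 and 11. The calls that held with each array left out were 2 of the higher and 8 of the lower ones. The lowest were Nppc, the precursor of C-type natriuretic peptide, Trh, that of thyrotropin-releasing hormone, and Kiss1, that of kisspeptin. Nppc differed by -3.90 ± 0.69 (SE, adjusted p = 0.0205), a call lost without negative array 1 (0.0831) or 2 (0.0888). Only 1 of its 2 positive arrays was well above background, at -8.53 and -6.61, and with normexp the difference was -1.24. Trh differed by -3.65 ± 0.27 (SE, adjusted p = 0.00234). Kiss1 differed by -3.24 ± 0.12 (SE, adjusted p = 0.000598) on its brighter probe and -2.10 on the other.

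The highest of the other precursors were Pthlh, which codes for parathyroid hormone-related protein, Adcyap1, the precursor of the peptide PACAP, and Agrp, the agouti-related antagonist of melanocortin receptors. Pthlh read -3.57 and -3.63 in the positive cells and -6.33 and -6.38 in the negative cells. Pthlh differed by 2.76 ± 0.08 (SE, adjusted p = 0.000515) and Adcyap1 by 1.47 ± 0.08 (SE, adjusted p = 0.00124). Agrp differed by 0.97 ± 0.17 (SE, adjusted p = 0.0199), and its call was lost without positive array 1 (0.0856) or 2 (0.0713). Pdyn was therefore not the only peptide precursor that was higher in the nephron progenitors.

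The largest falls in the pathway were those of peptidases that clear peptides. Of 24 tested, 3 were higher and 9 lower in the positive cells (50% called), with a median of -0.11, and 1 higher and 6 lower calls held with each array left out. Over all genes 38.9% were called, 20.7% higher and 18.3% lower. Scaled to the array median the split of the peptidases was 7 and 7. Among the lowest were Dpp4 and Enpep, membrane peptidases that are also found on proximal tubule brush borders. Dpp4 read -3.81 and -4.19 in the positive cells and 0.41 and 0.57 in the negative cells, and Enpep read -2.95 and -3.38 against 0.96 and 1.08. Both positive arrays were the low ones for each gene. Dpp4, which cuts neuropeptide Y and substance P, differed by -4.49 ± 0.17 (SE, adjusted p = 0.00061), and Enpep, aminopeptidase A, by -4.19 ± 0.18 (SE, adjusted p = 0.000764). The 3 highest were Mmel1, a relative of neprilysin, at 0.95 ± 0.10 (SE, adjusted p = 0.00634), Thop1 at 0.77 ± 0.14 (SE, adjusted p = 0.0224) and Dpp7 at 0.64 ± 0.09 (SE, adjusted p = 0.0134). Thop1, a cytosolic peptidase that cuts dynorphin fragments and neurotensin, and Dpp7, a lysosomal one, each kept the call in only 1 of the 4 fits that left out an array (Thop1 without negative array 2, Dpp7 without negative array 1), with adjusted p up to 0.0989 for Thop1 and 0.0734 for Dpp7.

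**Figure D3:**
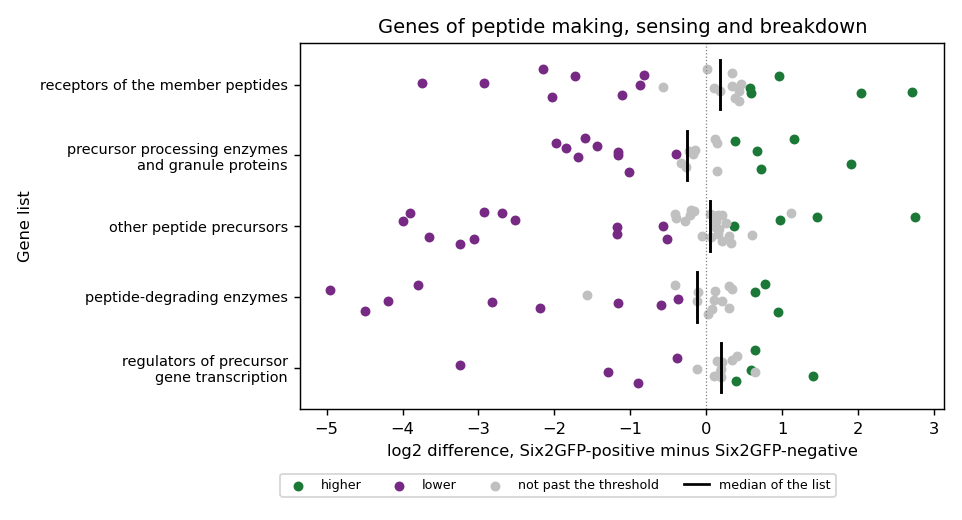
The log2 difference of positive minus negative cells (horizontal axis) for every tested gene of 5 lists on the peptide pathway (vertical axis), 1 point per gene, green for genes that rose, purple for those that fell, grey for those not past the threshold, with a black bar at the median of each list. The bars lie between -0.25 and 0.20, and the longest tails are those of lower genes, such as Dpp4 at -4.49.

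Where 38.9% of all genes were called (20.7% higher and 18.3% lower), known regulators of precursor genes were called in both directions. Of 18 tested, 4 were higher and 4 lower (44.4%), with a median of 0.20. Scaled to the array median the split was 9 higher and 3 lower. Only 3 of these 8 calls held with each array left out: Rcor2, Fosl2 and Nr3c1. Rest, the silencer of neuronal genes, was higher by 0.64 ± 0.10 (SE, adjusted p = 0.0157), its corepressor Rcor2 by 1.41 ± 0.09 (SE, adjusted p = 0.00181) and the CREB coactivator Crtc3 by 0.59 ± 0.11 (SE, adjusted p = 0.025). Kcnip3, known as DREAM, a repressor of Pdyn, was lower at -0.90 ± 0.16 (SE, adjusted p = 0.0199) on its brighter probe and -0.34 on the other. The brighter probe read -0.59 and -0.95 in the positive cells and 0.20 and 0.07 in the negative cells, and the call held only without positive array 1, with an adjusted p of up to 0.082 otherwise. The Rest call held only without negative array 1 (up to 0.0825 otherwise), and that of Crtc3 was lost whichever array was left out (up to 0.102).

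The 2 lowest regulators were Nr3c1, the glucocorticoid receptor, at -1.30 ± 0.08 (SE, adjusted p = 0.00173), and Fosl2, a member of the AP-1 family. Fosl2 differed by -3.24 ± 0.11 (SE, adjusted p = 0.000586) on its brighter probe and -0.34 on the other. The immediate early genes Fos, Fosb, Junb, Egr1 and Nr4a1 did not pass between the groups, and all 5 were higher on array 1 than on array 2 in both groups, an observation made after their values were seen. For Fos the gap was 1.72 in the positive cells and 1.73 in the negative cells, for Fosb 1.83 and 2.39, for Nr4a1 1.67 and 1.48, for Junb 0.82 and 0.92 and for Egr1 0.64 and 0.69, against a median of 0.01 for all genes in each group. Egr1 also differed by 0.65 between the groups (adjusted p = 0.208), and passed with the replicate block (adjusted p = 0.023) and when scaled to the array median (difference 0.90, adjusted p = 0.0405).

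Lastly, the nearest gene on each side of each precursor that was in the fit was read from RefSeq's gene order, to set their differences beside those of the precursors. Some of these genes lie far from the precursor, and distances are not given, since that table is on another build than the probes. By the adjusted p, 38.9% of all genes tested were called, 20.7% higher and 18.3% lower. Of 20 such genes, 7 were higher, 6 lower and 7 not past the threshold (10 higher and 5 lower when scaled to the array median), and only 4930430F08Rik, Rtp4 and Myct1 (the last, beside Vip, named after its value was seen, at -1.42) held with each array left out. Beside Pdyn, which was 4.99 higher, Sirpa was lower at -0.80 ± 0.12 (SE, adjusted p = 0.0134, lost without either negative array or positive array 2, up to 0.0628). Stk35os1 on its other side was higher at 0.43 ± 0.10 (SE, adjusted p = 0.0389, lost without any 1 array, up to 0.161). No neighbour of Pdyn thus came near its difference.

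Beside Penk, A830012C17Rik gave only a background reading in the positive cells, which puts it at least 4.21-fold lower there (adjusted p = 0.0116). This call was lost without negative array 1 (difference -2.44), and the smallest measured difference under alternative processing was -0.63. Gm11808 on the other side of Penk was higher by 0.39 (adjusted p = 0.0303). Beside Nts, 4930430F08Rik was higher by 0.76 (adjusted p = 0.00758) and Rassf9 lower at -0.60 (adjusted p = 0.016). Beside Sst, Rtp4 was lower at -1.77 (adjusted p = 0.00399) and Rtp2 differed by -0.01 (adjusted p = 0.959). Beside Npy, Mpp6 was lower at -0.46 (adjusted p = 0.0283) and Fam221a differed by -0.39 (adjusted p = 0.0794). Of the genes beside Gal, Tac1 and Cck, Tesmin at 0.62, Sdhaf3 at 0.32 and Lyzl4 at 0.56 were higher, with adjusted p of 0.0375, 0.0473 and 0.0451, and Ppp6r3, Asns and Trak1 differed by 0.25, 0.18 and 0.25 without passing. The calls of Gm11808, Mpp6, Sdhaf3 and Lyzl4 were lost whichever array was left out, at adjusted p up to 0.146, 0.132, 0.2 and 0.154. Tesmin held only without positive array 2 and Rassf9 only without negative array 2, the adjusted p otherwise reaching 0.12 and 0.0874.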

How the data were processed

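Per the file headers, the authors quantified 1-colour Agilent arrays (design 026655, mm9 coordinates) with Feature Extraction 10.7.3.1 (protocol GE1_107_Sep09). The deposited files hold the processed intensity of each spot on a linear scale, with no normalization between arrays. A deposited table of the series holds the same intensity for each probe, within 0.01 log2 for 99.8% of probes on each array, with medians of 114, 110, 158 and 143, so its scale and direction are settled; it served as an alternative.

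From these values, control spots and the 108 to 174 spots of each array marked as outliers were removed, spots of a probe were averaged, and log2 intensity minus the array's 75th percentile (1410 to 1604) was used. Probes well above background on both arrays of a group were kept (30012), each gene was read from its brightest kept probe, and limma 3.58.1 (R 4.3.3; lmFit and eBayes, tested on simulated data) compared the groups, which were taken from the sample titles, with Benjamini-Hochberg adjustment over 24150 genes at 0.05. Probe names came from RefSeq accessions (26034 probes), current symbols (3190) or the file's own name (10171), which can be old.

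The precursors and the gene lists were chosen with earlier results of these data known. Named are every precursor, the 3 highest and 3 lowest calls of each list (by the bound where a group was dim), each tested receptor, the nearest genes of precursors above background, and the 5 genes nearest to Pdyn in profile; some genes of the lists are not reported here. P-values measure only the spread between these samples. All arrays shared 1 slide and 1 scan time, so no batch could be fitted. In fits with 1 array left out, the lone array is assumed to vary like the other group. Alternatives were other scalings, background corrections, filters, probe rules, variance models and a replicate block.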

Additional observations from a re-analysis of the deposited data

How the results depend on the processing

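Pdyn was higher and Penk, Npy, Tac1, Cck and Nts were lower in the positive cells under every alternative that gave them a value, the filter on all 4 arrays giving none for Tac1. The Pdyn difference of 4.99 became 5.24 with the array median, 4.12 and 4.14 with normexp before the 75th percentile or quantile normalization, and 4.12 as the mean of its probes, and ran from 4.76 to 5.22 with 1 array left out. Normexp drew the dim precursors in, before the 75th percentile or quantile normalization: Npy to -2.43 or -2.36, Cck to -2.78 or -2.70, Nts to -3.79 or -3.77 and Tac1 to -0.45 or -0.53. Gal turned to 0.0495 with the array median, Sst to 0.062 with normexp before the 75th percentile, and Cckbr to -0.75 as the mean of its probes. Without a filter on dim probes, 5 regulators and 7 neighbours passed in place of 8 and 13; there the threshold was adjusted over 31875 genes. With 1 array left out, 9 to 11 receptors passed (13 with all arrays), 10 to 11 processing genes (14), 11 to 14 other precursors (16), 8 to 9 peptidases (12), 3 to 4 regulators (8) and 3 to 5 neighbours (13), and 4643 to 5309 of all genes against 9402. Scaling to the array median moved the median of all genes from 0.15 to 0.41 and the split of calls from 4989 higher and 4413 lower to 10810 and 3767.

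The array numbers in the titles are shared by both groups, but nothing says that they pair samples, and with 2 pairs the deviations of same-numbered arrays correlated at 0.22 across genes. With the number as a replicate block, 8615 genes passed in place of 9402, the precursor differences were the same by construction, and the lists gave 13 receptors, 12 processing genes, 15 other precursors, 11 peptidases, 7 regulators and 11 neighbours. The dim probes of Pnoc, Vip and the second Pdyn probe limit what can be said of them.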
